A study of Mus musculus with 282 samples.

Results

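The mitochondrially encoded genes are the genes carried by the mitochondrion's own circular chromosome. They were taken as every row whose Ensembl identifier maps to a mouse symbol starting with mt-, which gave 37 of the 48440 gene rows, and all 37 were present in both count tables. They comprise 13 protein-coding (mRNA) genes, 2 rRNA genes and 22 tRNA genes. The cells came from the prostates of male POET3 mice, a transgenic line that carries ovalbumin as a prostate antigen and is used as a model of T cell driven prostatitis. One condition was naive prostate and the other inflamed prostate, so that both conditions shared the POET3 background, the enzymatic dissociation and the antibody staining for CD45, CD31, Sca-1 and CD49f before sorting of basal prostate stem cells. The sources used here do not give ages, the way in which inflammation was induced, the gates or the number of animals. Each condition was measured in batch 2 and in batch 3, with 53 naive and 80 inflamed cells of batch 2 and 59 naive and 76 inflamed cells of batch 3 kept, each cell on a Fluidigm C1 chip with 50-base single-end reads.

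Mitochondrial DNA encodes the core, membrane-embedded subunits of the respiratory chain, and all other subunits come from the nucleus. Complex I takes electrons from NADH, complex III passes them to cytochrome c, complex IV hands them to oxygen, and complex V, the ATP synthase, uses the proton gradient that results. Both strands are transcribed as long precursors, tRNAs are cut out from between the mRNAs and rRNAs, and most of the mRNAs and both rRNAs receive short poly(A) tails. Nuclear chromosomes also hold inserted copies of mitochondrial DNA, some of them annotated as pseudogenes. A short read from such a stretch can match both places.

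Read counts of the members differed most along one run of copied sequence, and sequences from it are shown here because the levels of 6 mRNA genes cannot be interpreted without them. In the GENCODE annotation of GRCm38, 7 pseudogenes on the minus strand of chr1:24611535-24616197 followed the same order as chrM:6381-11042, a mitochondrial stretch of 4662 bases. Gm28661 matched mt-Co2 at 681 of 681 aligned bases, Gm10925 matched mt-Atp6 at 678 of 678, Gm28437 matched mt-Co3 at 783 of 783 and Gm10222 matched mt-Nd4l at 294 of 294. Gm28438 matched mt-Nd3 at 344 of 345 bases, Gm28439 matched the first 876 bases of mt-Nd4 without a difference, and Gm29216 matched the last 492 bases of mt-Co1 with 6 differences. The first 60 bases of mt-Co2, at chrM:7013-7072 on the plus strand, were the same in the chromosome 1 copy.
mt-Co2: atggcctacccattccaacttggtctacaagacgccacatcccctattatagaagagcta
Gm28661: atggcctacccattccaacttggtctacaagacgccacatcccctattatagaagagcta
The first 60 bases of mt-Nd3, at chrM:9459-9518, held the one difference from its copy, written T3C when counted from 1 at the first base of mt-Nd3 and shown in capitals.
mt-Nd3: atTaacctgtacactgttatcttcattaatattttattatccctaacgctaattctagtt
Gm28438: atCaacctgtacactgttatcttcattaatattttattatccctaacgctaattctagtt
mt-Co1 had a second copy along its whole length, Gm13340 on chromosome 2, which differed at 37 of 1545 bases. Of the 50-base windows of mt-Co1, 27.5% occurred exactly in Gm13340. The stretch chrM:5787-5846 on the plus strand is printed with the 4 differing bases in capitals. It was chosen as a 60-base stretch with the most differences, so it is not typical of the gene.
mt-Co1: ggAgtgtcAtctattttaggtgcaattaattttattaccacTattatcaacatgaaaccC
Gm13340: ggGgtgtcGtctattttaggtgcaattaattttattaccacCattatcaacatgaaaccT

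The share of each gene's 50-base windows with an exact copy in another annotated transcript was 100% for mt-Co2, 99.9% for mt-Co3, 99.5% for mt-Atp6, 98.8% for mt-Nd4l and 97.99% for mt-Nd3. It was 62.2% for mt-Nd4, 51.1% for mt-Co1, 8.19% for mt-Nd2, 7.61% for mt-Nd5 and 1.04% for mt-Rnr2, and it was 0% for mt-Nd1, mt-Nd6, mt-Cytb and mt-Rnr1. With up to 2 mismatches allowed, the share rose to 94.8% for mt-Co1, 51.1% for mt-Nd6, 37.7% for mt-Nd2, 32.2% for mt-Nd5 and 23.3% for mt-Cytb. It was then 3.39% for mt-Rnr2 and stayed at 0% for mt-Nd1 and mt-Rnr1. mt-Atp8 lies inside the stretch, all but its last 43 bases in a gap of 233 bases between the parts matched by 2 chromosome 1 pseudogenes, a gap of equal length on both chromosomes. No pseudogene is annotated in that gap, so its window share of 0% covers annotated transcripts only, and the genome sequence between them was not used here. The 6 mRNA genes that lie wholly in the stretch (mt-Co2, mt-Co3, mt-Atp6, mt-Atp8, mt-Nd3 and mt-Nd4l) had 325 reads over all 268 kept cells. The 2 that lie partly in it (mt-Co1 and mt-Nd4) had 2516735 reads, and the 5 outside it had 3877119. The 5 tRNA genes inside the stretch had 13 reads together against 3182 for the 17 tRNA genes outside it. The handling of reads with more than 1 match is not known from these sources, so for these 6 mRNA genes a low RNA level and reads not counted cannot be told apart.

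**Figure D1:**
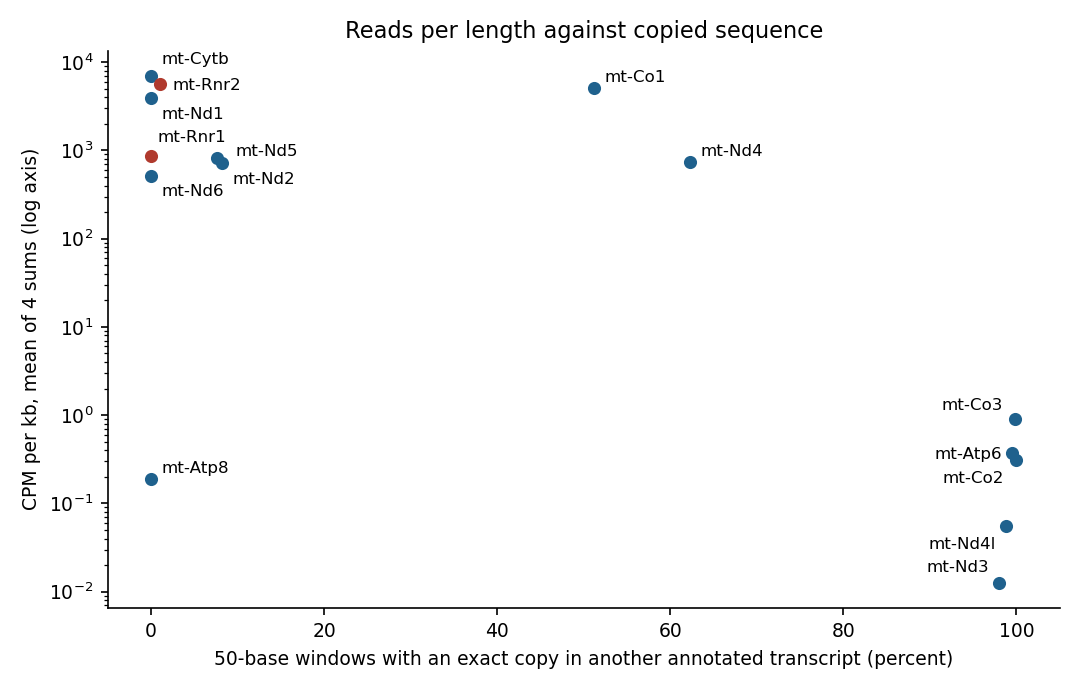
Mean level of the 13 mRNA genes (blue) and 2 rRNA genes (red) in CPM per kilobase (CPM, a gene's counts per 1e6 of the library's scaled total) over the 4 sums, on a log axis, against the percent of 50-base windows that occur exactly in another annotated transcript. The 5 genes at 97.99% to 100% lie below 1 on the vertical axis, as does mt-Atp8, and all others lie at 517 or more.

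The rows of the copies themselves were low. Gm28661, Gm10925, Gm28437, Gm29216, Gm10222 and Gm28439 lay between 0 and 2.11 CPM, scaled with TMM factors, in the 4 sums. Gm28438, which differs from mt-Nd3 at a single base, was the exception, at 10.7 and 9.18 CPM in naive batches 2 and 3 and at 10.6 and 8.66 CPM in inflamed batches 2 and 3. mt-Nd3 itself, a complex I subunit, had 1 read in naive batch 2 and none in the other 3 sums, where 0 of 59, 80 and 76 cells allow a share of cells with a read (3 over the number of cells) of up to 5.08%, 3.75% and 3.95%. Gm13340 was at 2.92, 2.77, 8.63 and 4.70 CPM in the same order of sums, far below mt-Co1 in each.

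Single cells do not stand for replicates, and the tested unit was therefore the sum of a condition's kept cells in a batch. The 4 sums held between 50105953 and 79225330 counts, and edgeR's quasi-likelihood test with batch and condition as terms was run over the 14713 genes that passed a low-count filter. Of the 37 members, 24 passed that filter, namely 10 mRNA, 2 rRNA and 12 tRNA genes. After Benjamini-Hochberg adjustment no member passed 0.05, and neither did any other gene (0% of genes called, lowest adjusted p 0.568). At an unadjusted p under 0.05, 2 members were higher in inflamed cells (mt-Co1 and mt-Cytb) and 0 were lower, beside 5.04% of all genes tested that were higher and 3.23% that were lower. DESeq2 on the same sums called mt-Co1 higher and no member lower, beside 7.13% of 13001 genes called higher and 4.11% called lower. The model left 1 residual degree of freedom, from batches that may be technical repeats. These p-values therefore rest on how far the inflamed to naive difference varied between the 2 batches. They also rest on spread shared over genes, with 2.66 prior degrees of freedom in edgeR.

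The mRNA genes as a group were higher in inflamed cells in both batches, while the rRNA genes were not. mRNA genes took 1.67% and 1.48% of the counts of the naive sums of batches 2 and 3 and 3.58% and 2.48% of the inflamed sums, a ratio of 2.14 in batch 2 and 1.67 in batch 3. The two-sided exact permutation p over the 4 sums was 0.333, the smallest that 2 sums against 2 allow. This permutation did not keep the pairing by batch. rRNA genes took 1.12% and 0.819% of the naive sums and 1.30% and 0.734% of the inflamed sums, with ratios of 1.16 and 0.896 that point in opposite directions (exact permutation p = 1). By complex, the inflamed to naive ratio of the share of counts in batches 2 and 3 was 1.43 and 1.31 for complex I, 2.11 and 1.49 for complex III, and 3.32 and 2.52 for complex IV, which rests almost wholly on mt-Co1. For complex V it was 1.13 and 0.781, from 77 reads in all. Of the 10 mRNA genes tested, 6 were higher in both batches, 1 was lower in both and 3 went opposite ways, beside 30.9% of all genes tested that were higher in both and 27.6% that were lower in both. With upper-quartile factors in place of TMM, mt-Nd4 and mt-Co3 were above 0 in batch 3 as well (log2 0.06 and 0.04). With TMM, the median log2 fold change of the 10 tested mRNA genes was 0.46 (0.64 in batch 2 and 0.35 in batch 3) against 0.10 over all genes tested. Among the 7 mRNA genes outside the copied stretch or only partly in it, 5 were higher in both batches, 2 went opposite ways and the median was 0.71.

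**Figure D2:**
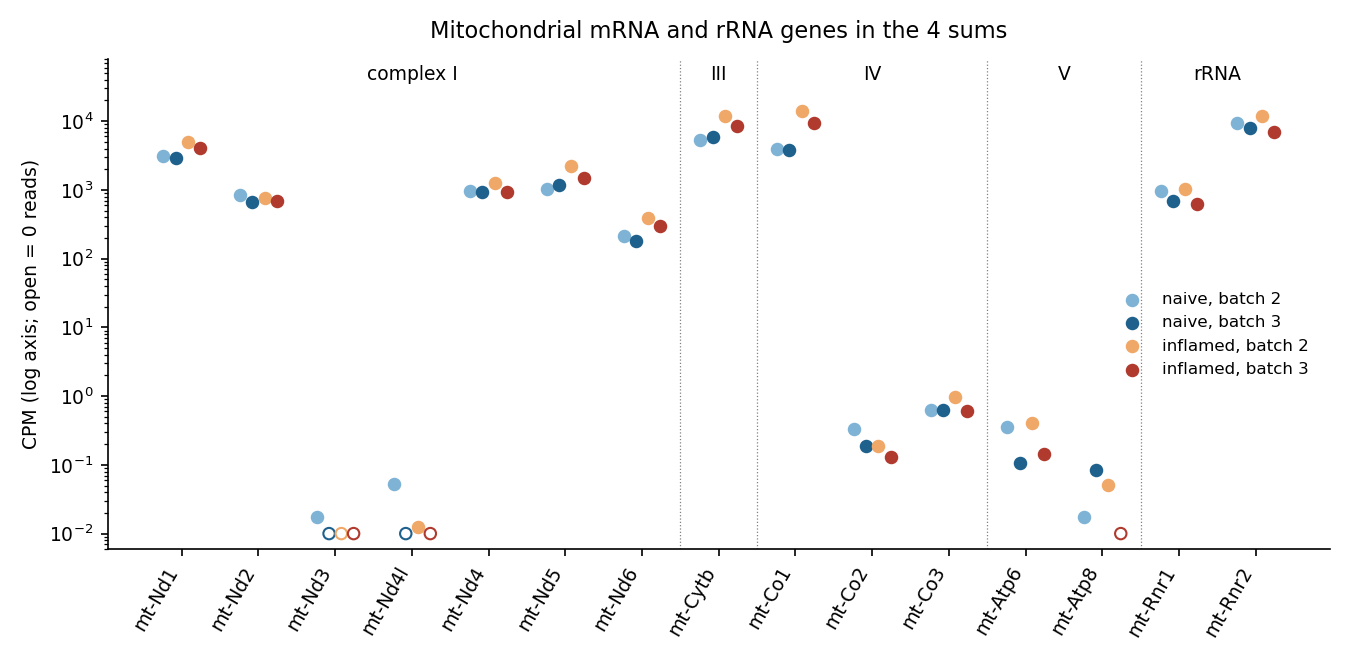
CPM of each mRNA and rRNA gene in the 4 sums on a log axis, grouped by complex, with open circles at the foot for sums without a read. mt-Co1 and mt-Cytb sit higher in both inflamed sums than in both naive sums, mt-Rnr1 and mt-Rnr2 overlap, and the 6 genes of the copied stretch lie below 1 CPM.

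Complex I has 7 mitochondrial subunits, all of them parts of its proton-pumping membrane arm. mt-Nd1 (ENSMUSG00000064341, chrM:2751-3707), at the joint to the quinone-binding arm, was at 3107 and 2892 CPM in the naive sums of batches 2 and 3 and at 5013 and 4070 CPM in the inflamed sums. Both inflamed values lay above both naive values, and the log2 fold change was 0.59 ± 0.23 (SE; edgeR adjusted p 0.583). mt-Nd5 (ENSMUSG00000064367, chrM:11742-13565), an antiporter-like subunit, was at 1041 and 1184 CPM in naive cells and at 2191 and 1498 CPM in inflamed cells. Its log2 fold change was 0.71 ± 0.31 (adjusted p 0.615), with the batch 2 difference of 2.10-fold larger than the 1.26-fold of batch 3. mt-Nd6 (ENSMUSG00000064368, chrM:13552-14070) is the only protein-coding gene of the opposite strand, and it overlaps mt-Nd5 by 14 bases. It was at 210 and 178.9 CPM in naive and at 389 and 296 CPM in inflamed cells, 0.81 ± 0.31 on the log2 scale (adjusted p 0.586). These sources do not say whether counting used strand, so reads of the light-strand and heavy-strand transcripts over mt-Nd6 could not be separated.

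Not all complex I genes showed this pattern. mt-Nd4 (ENSMUSG00000064363, chrM:10167-11544), another antiporter-like subunit, was at 960 and 944 CPM in naive cells and at 1248 and 937 CPM in inflamed cells. The conditions overlapped, and the log2 fold change was 0.18 ± 0.27 (adjusted p 0.939). mt-Nd2 (ENSMUSG00000064345, chrM:3914-4951), the third antiporter-like subunit, was at 856 and 675 CPM in naive cells and at 758 and 699 CPM in inflamed cells, again overlapping, with -0.06 ± 0.27 (adjusted p 1). mt-Nd4l, a small membrane subunit whose gene overlaps that of mt-Nd4 by 7 bases, had 3, 0, 1 and 0 reads in naive batch 2, naive batch 3, inflamed batch 2 and inflamed batch 3.

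mt-Cytb (ENSMUSG00000064370, chrM:14145-15288) encodes cytochrome b, the redox core of complex III and its single mitochondrial subunit. It was at 5263 and 5895 CPM in naive cells and at 12080 and 8580 CPM in inflamed cells, with no overlap. The log2 fold change was 0.87 ± 0.27 (edgeR adjusted p 0.568), which is 2.29-fold in batch 2 and 1.46-fold in batch 3. Over single cells the median was 5416 and 4269 CPM (of a cell's own counts) among naive cells, below 8532 and 6930 CPM among inflamed cells.

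mt-Co1 (ENSMUSG00000064351, chrM:5328-6872) encodes the catalytic subunit of cytochrome c oxidase, where oxygen is reduced. It was at 3941 and 3817 CPM in naive cells and at 14250 and 9406 CPM in inflamed cells, the largest difference among the mRNA and rRNA genes tested. The naive sums lay close together and both inflamed sums were well above them, 3.61-fold in batch 2 and 2.46-fold in batch 3. The log2 fold change was 1.58 ± 0.26, with an adjusted p of 0.568 in edgeR and 0.00911 in DESeq2. A single cell gave at most 5.36% of the mt-Co1 reads of any sum, and the median cell was at 4419 and 3200 CPM for naive cells of batches 2 and 3, below 11880 and 8561 CPM for inflamed cells. Only 78 of its 1496 windows differ by more than 2 bases from every other annotated transcript, so its level also rests on how near matches were counted.

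The other complex IV and V members lie in the copied stretch and had too few reads for a comparison. mt-Co2, which holds the copper site that receives electrons from cytochrome c, had 19, 9, 15 and 10 reads in naive batch 2, naive batch 3, inflamed batch 2 and inflamed batch 3. mt-Co3, the third core subunit of complex IV, had 36, 30, 77 and 47 reads. mt-Atp6, the proton channel subunit of ATP synthase, had 20, 5, 32 and 11 reads, and mt-Atp8, whose gene overlaps that of mt-Atp6 by 43 bases, had 1, 4, 4 and 0. The conditions overlapped in CPM for all 4, and no statement on complex V was possible from 77 reads.

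The rRNA genes were abundant and did not separate the conditions. mt-Rnr2 (ENSMUSG00000064339, chrM:1094-2675), the large-subunit 16S rRNA, was at 9314 and 7927 CPM in naive cells and at 11960 and 6934 CPM in inflamed cells. The inflamed sums were the highest and the lowest of the 4, and the log2 fold change was 0.08 ± 0.25 (edgeR adjusted p 0.994). mt-Rnr1 (ENSMUSG00000064337, chrM:70-1024), the small-subunit 12S rRNA, was at 950 and 696 CPM in naive and at 1026 and 617 CPM in inflamed cells, with -0.03 ± 0.27 (adjusted p 1).

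Scaled by gene length, the order of the abundant members differed between the conditions. In naive batches 2 and 3, mt-Cytb had 4601 and 5153 CPM per kilobase and mt-Rnr2 had 5888 and 5011, and these 2 changed places between the batches. mt-Nd1 followed at 3247 and 3022 and mt-Co1 at 2551 and 2471. In inflamed batches 2 and 3, mt-Cytb had 10560 and 7500 CPM per kilobase and mt-Co1 came next at 9221 and 6088, above mt-Rnr2 at 7560 and 4383 and mt-Nd1 at 5238 and 4253. By full length, mt-Co1 was thus below mt-Nd1 in both naive sums and above mt-Nd1 and mt-Rnr2 in both inflamed sums. The other 5 members lay from 345 (mt-Nd6) to 994.6 (mt-Rnr1) in the naive sums and from 571 (mt-Nd6) to 1201 (mt-Nd5) in the inflamed sums, with ranges that overlapped from mt-Rnr1 through mt-Nd5, mt-Nd4 and mt-Nd2. The same reads were also divided by a gene's windows without an exact annotated copy, in place of its length. As means over the 4 sums, mt-Co1 went from 5083 to 10740 and mt-Nd4 from 742 to 2037 (CPM per kilobase against CPM per 1000 windows). mt-Nd1, which had no window with an exact copy, went from 3940 to 4152. Only the divisor changed, since the place of each read within a gene was not known. The places of mt-Co1 and mt-Nd4 in the order thus depend on how copied sequence is treated. This includes the place of mt-Co1 below mt-Nd1 in the naive sums.

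The make-up of the mitochondrial reads differed between the conditions, a measure that does not depend on library scaling. Among reads of the mRNA and rRNA genes, mt-Co1 made up 15.4% and 15.8% in naive batches 2 and 3 and 29.1% and 28.5% in inflamed batches 2 and 3. mt-Rnr2 made up 36.3% and 32.7% in the naive and 24.5% and 20.99% in the inflamed groups, while mt-Cytb lay at 20.5% and 24.4% against 24.7% and 25.97%. The same was seen in single cells with at least 1000 such reads (52, 59, 80 and 76 cells). There the median mt-Co1 share was 14.5% (quartiles 10.3% to 18.2%) in naive batch 2 and 15.8% (10.8% to 20.4%) in naive batch 3. It was 29.8% (26.4% to 33.1%) in inflamed batch 2 and 28.5% (23.7% to 33.3%) in inflamed batch 3, so the middle portions of the naive and inflamed cells did not overlap. The median mt-Rnr2 share was 37.6% and 32.4% in the naive and 23.7% and 20.0% in the inflamed groups.

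**Figure D3:**
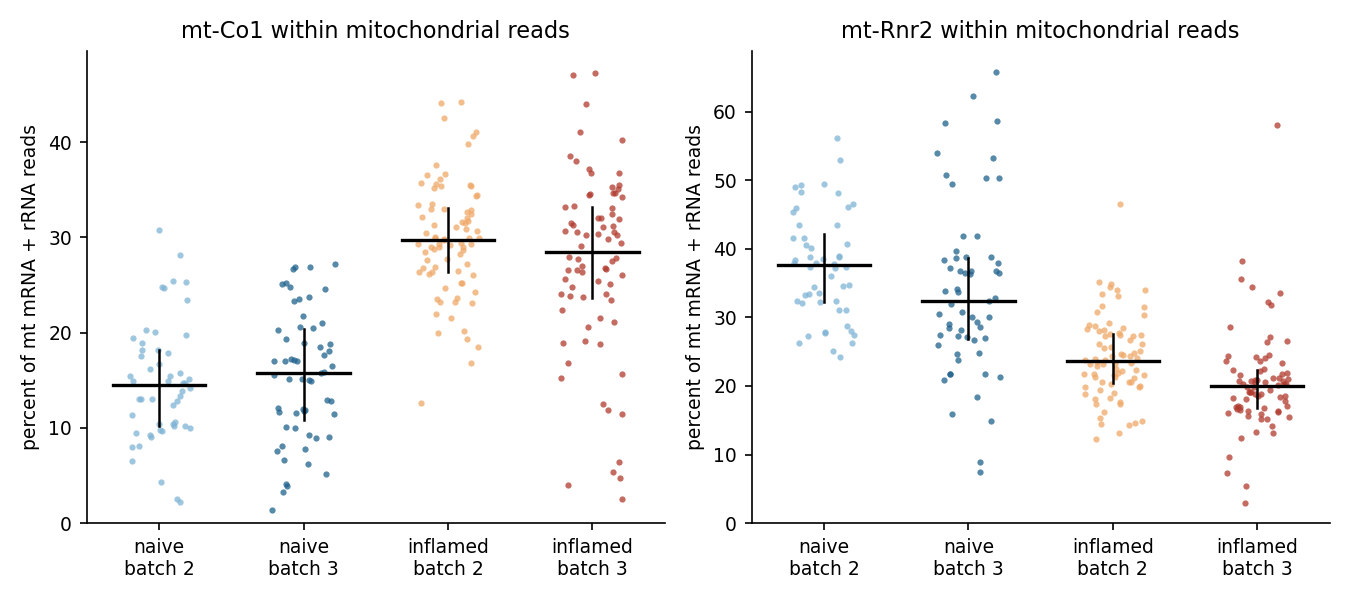
Percent of mitochondrial mRNA and rRNA reads that came from mt-Co1 (left) and mt-Rnr2 (right), 1 point per cell with at least 1000 such reads; the horizontal line is the median and the vertical line spans the quartiles. For mt-Co1 the naive medians are 14.5% and 15.8% and the inflamed medians 29.8% and 28.5%, and mt-Rnr2 shows the opposite order.

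Set against mt-Rnr2 in the same sum, mt-Co1 stood at 0.423 and 0.482 reads per mt-Rnr2 read in naive batches 2 and 3 and at 1.19 and 1.36 in the inflamed ones, a change of 2.82-fold in each batch. For mt-Cytb the ratio changed 1.79-fold in batch 2 and 1.66-fold in batch 3. It changed 1.26-fold and 1.61-fold for mt-Nd1, 1.64-fold and 1.45-fold for mt-Nd5, and 1.44-fold and 1.89-fold for mt-Nd6. For mt-Nd4 it was 1.01-fold and 1.13-fold, for mt-Nd2 0.689-fold and 1.18-fold, and for mt-Rnr1 0.841-fold and 1.01-fold. The genes thus differed among themselves, with mt-Co1 furthest from mt-Rnr2 in both batches. A ratio of this kind shows unequal change and not which gene was stable. Within each group of cells, the mt-Co1 share had a Spearman rho with the number of detected genes of 0.40, 0.36, 0.31 and 0.26 and with the summed share of 16 dissociation and stress genes of 0.14, 0.19, 0.10 and -0.03, in the order naive batch 2, naive batch 3, inflamed batch 2 and inflamed batch 3. These are descriptions over cells that share a condition and batch.

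Over single cells the mRNA share of a cell's counts varied far more than the medians did. Its lowest, median and highest values were 0.0140%, 1.55% and 12.8% in naive batch 2 and 0.0725%, 1.26% and 48.95% in naive batch 3. In inflamed batch 2 they were 0.268%, 2.67% and 58.3%, and in inflamed batch 3 they were 0.428%, 2.17% and 22.6%. Every group spanned at least a range from below 0.5% to above 12% and the groups overlapped, while both inflamed medians were above both naive ones. The median rRNA share was 1.04% and 0.751% in the naive and 0.947% and 0.576% in the inflamed groups, lower in inflamed cells within each batch. In a cell, mRNA and rRNA shares went together, with rho of 0.77, 0.67, 0.89 and 0.81 in naive batches 2 and 3 and inflamed batches 2 and 3. Over the 36 pairs of the 9 abundant members the median rho between their shares was 0.55, 0.34, 0.73 and 0.54 in the same order.

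**Figure D4:**
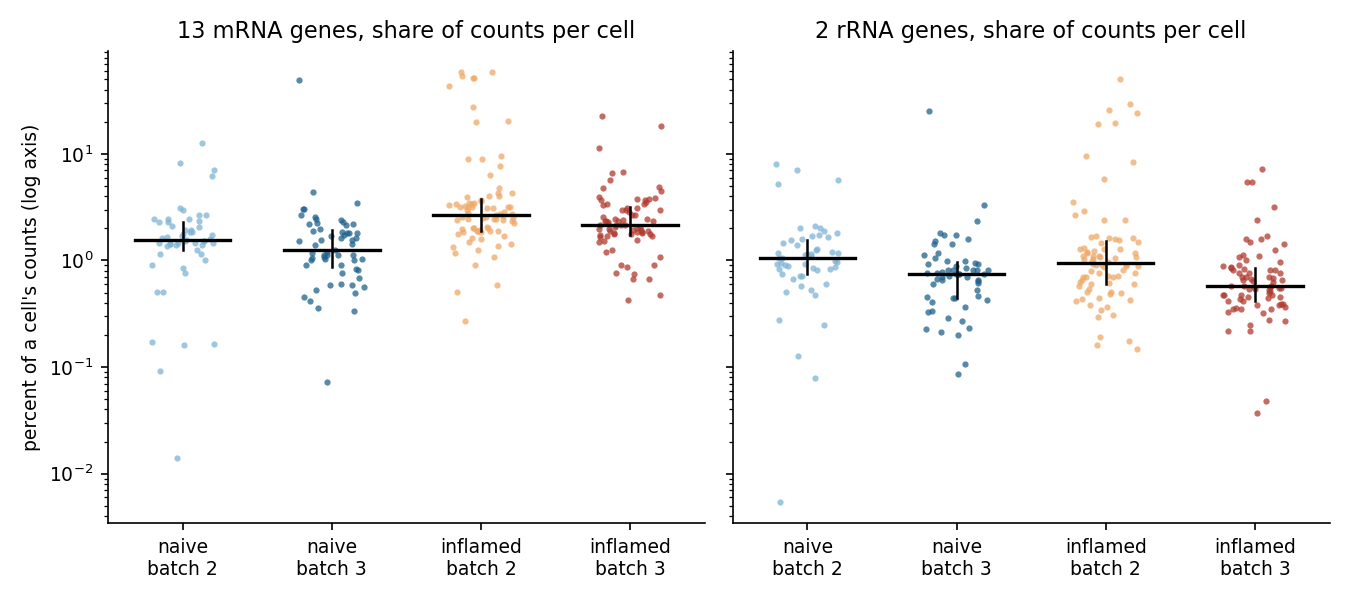
Percent of each kept cell's counts from the 13 mRNA genes (left) and the 2 rRNA genes (right) on a log axis, by condition and batch; the horizontal line is the median and the vertical line spans the quartiles. The mRNA medians are 1.55% and 1.26% among naive and 2.67% and 2.17% among inflamed cells, and the rRNA medians are lower in inflamed than in naive cells within each batch.

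Cells with over 10% of counts from the 37 genes numbered 4 of 53 (7.55%, exact binomial 95% interval 2.10% to 18.2%) in naive batch 2 and 1 of 59 (1.69%, 0.0429% to 9.09%) in naive batch 3. They numbered 13 of 80 (16.3%, 8.95% to 26.2%) in inflamed batch 2 and 3 of 76 (3.95%, 0.822% to 11.1%) in inflamed batch 3. The intervals cover counting error only. These cells were shallower than the rest, with median totals of 268879, 54810, 401114 and 297006 counts against 1015440, 842345.5, 1110009 and 1026015 for the remaining cells of the same groups. They gave 12.1% and 3.52% of the mitochondrial reads of the naive sums and 34.6% and 7.04% of the inflamed sums. Among the remaining cells the median mRNA share was 1.52% and 1.23% in the naive and 2.47% and 2.16% in the inflamed groups, but the median log2 fold change of the 10 tested mRNA genes was 0.24 without these cells, against 0.46 with them.

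tRNA genes are 59 to 75 bases long, the RNA is labelled as poly(A) RNA, and few tRNA reads were counted. All 22 together had 793, 581, 981 and 840 reads in naive batch 2, naive batch 3, inflamed batch 2 and inflamed batch 3, and 7 of them had none. The sequences of the 2 with the most reads are shown because both stand on the strand opposite to most of the mRNA genes.
mt-Tp: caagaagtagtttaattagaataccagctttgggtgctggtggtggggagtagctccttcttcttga
mt-Ta: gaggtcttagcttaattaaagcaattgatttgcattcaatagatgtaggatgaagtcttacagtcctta
mt-Tp (proline; chrM:15356-15422, minus strand) had 199, 80, 219 and 196 reads, or 3.52, 1.68, 2.77 and 2.57 CPM, in that order of sums. mt-Ta (alanine; chrM:5018-5086, minus strand) was at 2.37, 1.53, 1.92 and 1.35 CPM. For both the ranges of the conditions overlapped. Since the use of strand in counting is not known, reads of the 2 strands over these genes could not be separated. mt-Tl1 (leucine), which directly precedes mt-Nd1, was at 0.937, 1.95, 1.78 and 2.11 CPM, and mt-Tc (cysteine) was at 2.16, 2.00, 1.44 and 1.34 CPM. Of the 12 tRNA genes tested, 2 were higher in both batches, 5 were lower in both and 5 went opposite ways, with a median log2 fold change of -0.16 and none called by edgeR after adjustment or at an unadjusted p under 0.05.

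Nuclear genes for subunits of the same complexes were more often lower than higher in both batches. Of 77 nuclear subunit genes of complexes I to V, all tested, 13 were higher in both batches and 39 were lower in both, beside 30.9% and 27.6% of all genes tested. Their median log2 fold change was -0.35 (-0.48 in batch 2 and -0.30 in batch 3), and their summed level was 10310 and 9341 CPM in naive cells and 9014 and 8361 CPM in inflamed cells. None was called after adjustment, and at an unadjusted p under 0.05 there were 2 higher (Ndufa10 and Uqcrc2) and 0 lower, beside 5.04% and 3.23% of all genes tested. The difference between nuclear and mitochondrial subunits was not tested.

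**Figure D5:**
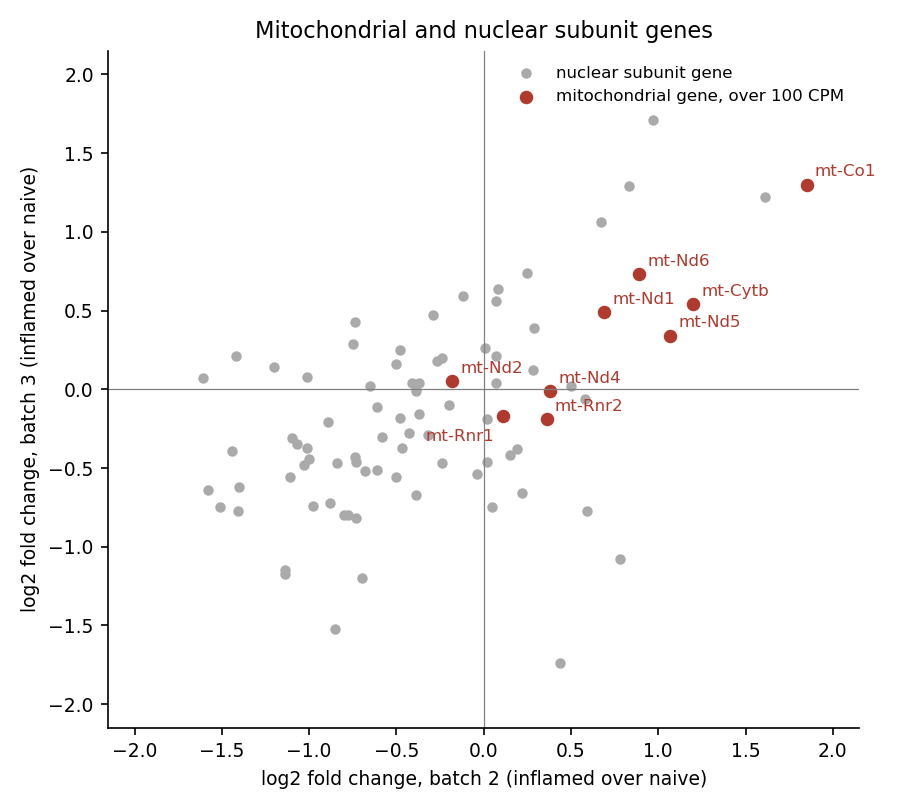
Log2 fold change of inflamed over naive cells in batch 2 (horizontal) and batch 3 (vertical) for the nuclear subunit genes of complexes I to V (grey) and the 9 mitochondrial genes above 100 CPM (red). mt-Co1 stands furthest to the upper right of the red points at 1.85 and 1.30, mt-Rnr1 and mt-Rnr2 lie near the origin, and 39 of the 77 grey points lie in the lower left.

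By complex, 4 of 36 nuclear complex I genes were higher in both batches and 21 were lower in both, with a median of -0.36. Ndufa10, an accessory subunit, was at 66.3 and 65.8 CPM in naive cells and at 130 and 215 CPM in inflamed cells, while Ndufb10 was at 128.4 and 109.1 CPM against 45.1 and 64.7. Complex II has no mitochondrial subunit, and of its 4 genes 1 was higher in both batches (Sdhd, 1.41-fold in batch 2 and 1.02-fold in batch 3), 0 were lower in both and 3 went opposite ways. Of 9 nuclear complex III genes, 4 were higher and 4 were lower in both batches. The core proteins Uqcrc1 (naive sums at 184.9 and 173.5 CPM, inflamed sums at 295 and 362) and Uqcrc2 (209.1 and 109.8 against 373 and 269) were among the higher, and Uqcr11 (108.1 and 126.1 against 48.9 and 55.9) was among the lower. Of 11 nuclear complex IV genes, 1 was higher and 6 were lower in both batches, with a median of -0.60. Ndufa4 was at 97.3 and 82.9 CPM in the naive sums, below the inflamed ones at 115.7 and 138.7, while Cox6a1 was at 464 and 330 CPM against 252 and 200, so mt-Co1 and this nuclear partner lay in opposite directions. Of 17 nuclear complex V genes, 3 were higher and 8 were lower in both batches (median -0.29), with Atp5f1 at 228 and 249 CPM against 240 and 287, Atp5k at 22.2 and 12.6 against 7.42 and 8.08, and Atp5l at 4.44 and 4.37 against 2.46 and 1.51.

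Genes that act on mitochondrial DNA and RNA were read in a median of 16.1% of kept cells over 40 genes, against 74.6% over the 77 nuclear subunit genes. Among Tfam, Lrpprc, Grsf1, Nrf1 and Ppargc1a the share ran from 21.6% (Ppargc1a) to 35.1% (Grsf1). Of 14 tested genes for mitochondrial DNA replication and transcription, 4 were higher and 5 were lower in both batches. Their median log2 fold change was 0.37 in the fit but -0.20 and -0.15 within batches 2 and 3. Tfam, which packages mitochondrial DNA and starts transcription, was at 21.5 and 5.21 CPM in naive cells and at 42.6 and 18.2 CPM in inflamed cells, with 83.1% of the naive batch 3 reads from 1 cell. Of 16 genes for mitochondrial RNA processing and stability, 4 were higher and 6 lower in both batches, and their median was 0.85 in the fit but -0.01 and -0.40 within batches 2 and 3, so its sign depends on the measure. Lrpprc, which stabilises mitochondrial mRNAs, was at 7.37 and 40.4 CPM in naive and at 32.8 and 57.3 CPM in inflamed cells, with 99.3% of the naive batch 3 reads from 1 cell. Grsf1, an RNA granule protein, was at 72.1 and 177.6 CPM against 37.3 and 55.5. In naive batch 2 a single cell gave 51.4% of the Grsf1 reads, and without it that sum was at 35.97 CPM, below inflamed batch 2, while leaving out the top cell of each sum gave 35.97 and 117.1 CPM against 28.01 and 43.8. Of 9 regulators of mitochondrial biogenesis, 6 were higher and 2 lower in both batches (median 0.50). Nrf1 was at 11.6 and 16.7 CPM in naive and at 52.6 and 36.2 CPM in inflamed cells, and Ppargc1a at 5.81 and 20.9 against 74.3 and 37.9, with 66.4% of the naive batch 2 reads of Nrf1 and 89.02% of the naive batch 3 reads of Ppargc1a from 1 cell. Without the top cell of each sum Nrf1 was at 3.98 and 11.4 CPM against 41.3 and 27.95, and Ppargc1a at 2.56 and 2.33 against 59.3 and 21.7. Polg2, Fastkd2 and Pprc1 were lower in both batches with all cells. Without the top cell of each sum, Polg2 was at 10.6 and 16.7 CPM against 13.8 and 6.86. Fastkd2 was then at 6.38 and 54.6 CPM against 17.6 and 65.5, and Pprc1 at 31.1 and 40.75 against 34.25 and 9.31. No gene of these 3 lists passed the adjusted threshold in edgeR, and neither did any other gene tested. DESeq2 called 0 higher and 1 lower in the replication and transcription list, and 2 higher and 1 lower in the RNA processing list. Among the biogenesis regulators it called 0, beside 7.13% of 13001 genes called higher and 4.11% called lower.

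The label of basal cells was checked on marker genes, and the markers that moved with the conditions are given for comparison. All 10 basal markers had reads, with summed levels of 8254 and 10090 CPM among naive and 13870 and 13900 CPM among inflamed cells. The members did not move alike: in both batches 5 lay higher and 2 lower, and the median log2 fold change was 0.02. Krt17 was at 1663 and 3695 CPM against 6847 and 5799, whereas the inflamed to naive ratio of Krt5 was 0.411 and 0.856 in batches 2 and 3 and Trp63 was at 268 and 344 against 82.8 and 293. Luminal markers summed to 1430 and 2348 CPM among naive and 2766 and 2353 CPM among inflamed cells, with 4 of 10 higher and 4 lower in both batches. Krt19 was at 30.3 and 100.7 CPM against 583 and 617.6, and Hoxb13 at 119.4 and 108.4 against 29.4 and 12.9. These 5 markers were chosen after their values were seen, and the part of either list in the mitochondrial values was not tested. Of 10 leukocyte markers 9 were at 0 in all 4 sums, Ptprc included, and all 5 red cell markers were at 0. Of 8 endothelial markers, 2 (Emcn and Cldn5) were at 0 in all sums and the list summed to 0.0210 to 3.25 CPM. Of 8 fibroblast markers 3 were at 0 (Pdgfrb, Lum and Dpt), and the list's 3369 to 4388 CPM came almost wholly from Dcn. Of 6 smooth muscle markers 3 were at 0 (Myh11, Des and Actg2), with sums from 40.6 to 141.9 CPM. The 16 dissociation and stress genes summed to 25930 and 36760 CPM in naive cells and to 6135 and 9189 CPM in inflamed cells, and 14 of the 16 were lower in both batches, Egr1 at 5655 and 9343 CPM against 375 and 800. This list was lower in both inflamed sums, where mt-Co1 and mt-Cytb were higher, and its part in the mitochondrial values was not tested. The rho between the mRNA share and the stress share over cells was 0.05 and -0.03 in naive and -0.19 and -0.29 in inflamed batches 2 and 3.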

How the data were processed

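Single cells of naive and inflamed prostate were measured in 2 batches, 282 cells in all. The authors deposited read counts per gene and cell without molecular identifiers, so intervals cover counting error only. Per the submitters' processing notes TopHat2, HTSeq, R 3.4.1, Seurat 1.4 and GRCm38.p6 were used, with no role or order given. Cells with at least 1000 detected genes and 50000 counts were kept, which was 268, with 14 left out. No doublet caller was run, 0 cells had identical counts and 0 columns went unused. Kept cells held 52475 to 2219764 counts. Counts were summed by condition and batch and tested with edgeR 4.0.16 (R 4.3.3, TMM, filterByExpr, quasi-likelihood test with batch and condition, Benjamini-Hochberg over all genes tested), with DESeq2 1.42.0 as an alternative. Log2 fold changes within a batch were differences of log2 CPM with a prior count of 2, a setting that the test did not use. CPM were computed from TMM-scaled totals. The batch of the labels pairs the sums (correlation of deviations -0.0114). Animals are not named in the labels, and if the batches do not hold separate animals each condition is in effect 1 sample. Symbols, coordinates and copied 50-base windows came from GENCODE M21 transcripts on GRCm38, since no genome sequence was used here. Members and gene lists were chosen with earlier results of these data known. Named are all mRNA and rRNA genes, the 4 tRNA genes with the most reads, and, from each nuclear list, genes among the 2 with the largest fold in each direction that agreed in both batches and had reads in at least 20% of cells.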

Additional observations from a re-analysis of the deposited data

Results flagged for a closer look

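The 14 cells left out of the main comparisons, with 2725 to 40682 counts each, had a median of 34.8% of counts from the 37 mitochondrial genes (range 1.55% to 75.8%). The medians of the kept cells were 2.67% and 2.26% in naive and 3.73% and 2.82% in inflamed batches 2 and 3. The higher median over the 14 cells left out is why they are given here, though it does not hold for each of them. They enter only the alternative with all deposited cells. By group, 2 naive batch 2 cells had a median of 21.8%, 5 naive batch 3 cells 44.4%, 5 inflamed batch 2 cells 30.7% and 2 inflamed batch 3 cells 2.57%.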

How the results depend on the processing

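The number of mitochondrial genes called was 0 in edgeR and stayed 0 under 10 of 11 alternatives, including the fit with no replicate block (0 called), and it was 1 with DESeq2 (mt-Co1, log2 1.57). The median log2 fold change of the tested mRNA genes was 0.46 and lay from 0.24, without cells over 10% mitochondrial reads, to 0.64, and was 0.46 with no replicate block and 0.35 to 0.64 with 1 batch left out. The log2 ratio of the mRNA share was 0.94, from 0.72 to 1.26 over 8 alternatives. mt-Nd1, mt-Co1, mt-Nd5, mt-Nd6 and mt-Cytb were above 0 under all 15 alternatives, mt-Co1 from 1.30 to 1.89 with adjusted p from 0.00911 to 0.658. The log2 change of the mt-Co1 to mt-Rnr2 ratio was 1.49 and, in alternatives chosen after seeing the data, 1.51 to 1.67. With 1 batch left out the sign turned for mt-Rnr1 (-0.17 to 0.11), mt-Rnr2 (-0.19 to 0.36), mt-Nd2 (-0.18 to 0.05), mt-Nd4 (-0.01 to 0.38) and mt-Co3 (-0.03 to 0.59). Without cells over 10% mitochondrial reads it turned for mt-Rnr2 (-0.15), mt-Co3 (-0.01) and mt-Nd4 (-0.02). With every cell weighted equally it turned for mt-Rnr1 (0.69) and mt-Nd2 (0.18), with upper-quartile factors for mt-Rnr1 (0.01), with stricter cells for mt-Rnr2 (-0.03), and without its top cell in each sum for mt-Co2 (0.11). Of the named nuclear genes, that last setting, chosen for them after seeing the data, turned Fastkd2 (from below 0 to 0.86) and, in 1 batch each, Atp5o, Polg2 and Pprc1. The cause was not tested. The 6 genes of the copied stretch had 0 to 77 reads per sum, which limits them.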
